A study of Homo sapiens with 4 samples.

Results

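The ETS genes examined here were 10 members of the ETS family of transcription factors, chosen by name: SPI1, SPIB, SPIC, ETS1, ETS2, ERG, FLI1, ELF1, ELF4 and ETV6. Each name matched 1 of the 58302 gene rows of an RNA sequencing table of BLaER1 cells, and the remaining 18 genes of the human family were followed beside them. The study compared differentiated with undifferentiated cells, in 2 libraries each: differentiated BLaER1 cells, kept for 5 to 6 days with 100 nM oestradiol, IL-3 and M-CSF, and undifferentiated BLaER1 cells without that treatment. For IL-3 the labels give 10 ng/ml, and whether the same amount holds for M-CSF is not certain from them. BLaER1 is a single human B cell leukaemia line known to carry, and so at both stages, a fusion of C/EBPα with the ligand-binding part of the oestrogen receptor, so that oestradiol starts its conversion towards macrophages. The labels do not say whether libraries of 1 stage came from separate cultures, so the p-values rest on a spread between libraries that may be technical only.

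ETS factors share a DNA-binding domain of the winged helix-turn-helix type and recognise sites built around the core GGAA. Because their sites are alike, which family members a cell makes, and how much of each, matters for which genes the family as a whole can bind. PU.1, the product of SPI1, is needed for both B cells and macrophages, and macrophages hold far more of it than B cells. Spi-B (SPIB) acts mainly in B cells and plasmacytoid dendritic cells, and ERG and FLI1 are known from blood stem cells, megakaryocytes and endothelium.

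Values are the authors' TPM, a transcript abundance scaled for gene length and set to the same sum in every library. Sequencing depth cannot be read from TPM, and no counting error can be given. Differences between stages are on the scale log2(TPM + 1), differentiated minus undifferentiated, from limma fitted over the 10180 genes that reached 1 TPM in 2 or more libraries. A gene is called where its Benjamini-Hochberg adjusted p over all these genes is below 0.05. Undifferentiated replicate 1 lay above undifferentiated replicate 2 by a median of 0.505 on the log2 scale, whereas the differentiated pair differed by a median of -0.063. Protein-coding genes took 12.2% and 13.5% of the TPM in differentiated libraries and 23.0% and 15.6% in undifferentiated libraries. All tested genes had a median difference of -0.14 as deposited, of 0.04 under median-of-ratios scaling, of -0.08 under quantile normalization and of 0.37 when protein-coding genes were rescaled alone. In these bulk samples, fewer cells of a type and less RNA per cell cannot be told apart.

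The stages carried the markers of their labels. Summed over 10 macrophage markers, TPM came to 757 and 835 in differentiated libraries and to 7.96 and 6.27 in undifferentiated libraries. Over 10 B lineage markers the sums were 12 and 12.5 TPM in differentiated and 472 and 274 TPM in undifferentiated libraries. MME, the gene of the surface enzyme CD10, was the 1 B lineage marker below the filter, at 0.46 and 0.03 TPM in differentiated and 0.51 and 0.95 TPM in undifferentiated libraries. Markers of lineages in which ERG, FLI1 or ETS1 are also used summed to at most 1.30 TPM per lineage in any library. The 4 endothelial markers summed to 0.74 and 0.27 TPM in differentiated and 0.02 and 0.01 TPM in undifferentiated libraries. The 4 megakaryocyte markers summed to 0.07 and 0.14 TPM in differentiated and 0.53 and 1.30 TPM in undifferentiated libraries, with GP1BA at 0 in all of them. Among these markers ITGA2B was at 1.11 TPM in undifferentiated replicate 2 and at 0 in the other libraries. The 6 T cell markers summed to 0.97 and 0.31 TPM in differentiated libraries and to 0.01 and 0 TPM in undifferentiated ones, with CD3D and CD3E at 0 in all 4. The 4 erythroid markers summed to 0.47 and 0.42 TPM in differentiated libraries and were at 0 in both undifferentiated ones.

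Among the 10 members, SPI1 had the highest level in differentiated cells, whereas ELF1 had the highest in undifferentiated cells, followed by FLI1 and ERG. Of the 10 members, 9 were tested, and 4 of these were called higher in differentiated cells (SPI1, ETV6, ELF4 and ETS1), 2 were called lower (SPIB and ERG) and 3 were not called (ELF1, FLI1 and ETS2). Over all tested genes 41.4% were called, 18.6% higher and 22.8% lower, so that a call alone does not set these genes apart. Differentiated and undifferentiated libraries were fully separated for 6 of the 9 tested members, all of them called. Over all tested genes, 31% lay wholly higher and 39% wholly lower in differentiated cells, so separation does not set these genes apart either. Other analyses called different shares of all genes, namely 54.7% under median-of-ratios scaling, 54.8% under quantile normalization, 52.4% after protein-coding rescaling, 39.8% with a pseudocount of 0.1, 4.32% without a filter and 54% with a filter at 5 TPM. The share was 39.3% without a variance trend, 12.8% against a log2 difference of 1 and 37% with the replicate number as a block. It was 12.7% and 12.5% without differentiated replicate 1 or 2, and 47.3% and 55.5% without undifferentiated replicate 1 or 2. Without differentiated replicate 1 the members called were SPI1 (higher) and SPIB (lower), without differentiated replicate 2 only SPI1 was called, and without undifferentiated replicate 2 the lower calls numbered 4, with ELF1 and ETS2 added. ELF4 passed the filter through the differentiated libraries alone, and SPIB and ERG passed it through the undifferentiated libraries alone, so that these 3 could pass only by being high at that stage. SPIC was listed at 0 in all 4 libraries and was not tested. The median difference of the 9 tested members was -0.06.

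**Figure D1:**
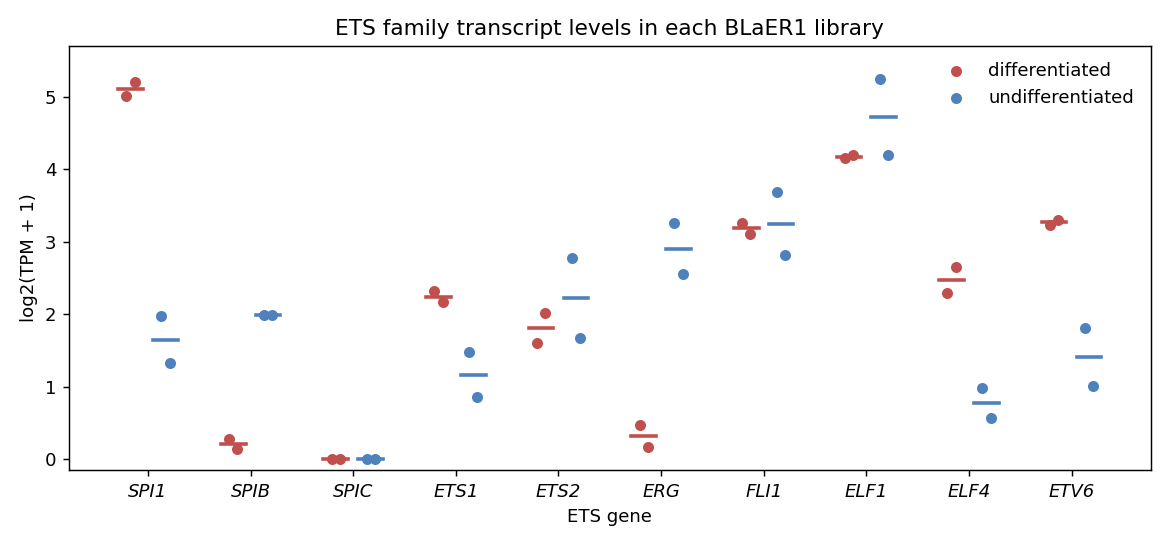
Transcript levels of the 10 ETS genes on the log2(TPM + 1) axis, with 1 point per library, differentiated left of undifferentiated, and a bar at the mean of the 2 libraries. The libraries of the stages do not overlap for SPI1, SPIB, ETS1, ERG, ELF4 and ETV6, and they overlap for ETS2, FLI1 and ELF1. Of all tested genes, 31% lay wholly higher and 39% wholly lower in differentiated cells.

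Promoter sequences are given for ETV6, which was called higher, and SPIB, which was called lower, because RefSeq lists a single start for each. The annotation behind the TPM is not given, so these gene-level values may include transcripts from other starts. Each sequence runs from 250 bases before to 50 bases after the start, with every GGAA, or TTCC where the motif lies on the opposite strand, in capitals. The ETV6 window lies at chr12:11649424-11649723 on the + strand and the SPIB window at chr19:50418688-50418987 on the + strand, both in GRCh38.p14.
ETV6: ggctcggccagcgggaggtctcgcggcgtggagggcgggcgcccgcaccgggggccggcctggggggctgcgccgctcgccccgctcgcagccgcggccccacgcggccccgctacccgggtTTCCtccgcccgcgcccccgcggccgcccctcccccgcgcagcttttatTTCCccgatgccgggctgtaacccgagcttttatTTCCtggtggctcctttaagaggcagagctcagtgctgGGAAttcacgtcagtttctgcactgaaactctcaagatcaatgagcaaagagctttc
SPIB: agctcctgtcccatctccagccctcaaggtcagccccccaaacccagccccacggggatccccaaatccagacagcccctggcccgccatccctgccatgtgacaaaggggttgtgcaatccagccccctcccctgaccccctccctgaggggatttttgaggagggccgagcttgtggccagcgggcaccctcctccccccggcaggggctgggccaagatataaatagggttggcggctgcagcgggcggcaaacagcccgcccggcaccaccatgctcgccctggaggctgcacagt
The ETV6 window held 4 matches of GGAA and 1 of GAGGAA, the letters most typical of PU.1 sites, beginning at position -128 as TTCCTC. The SPIB window held 0 matches of GGAA on either strand. Among all 35116 promoter windows of the same table, 95.5% held GGAA, with a median of 3 matches, 27.9% held GAGGAA and 17.2% held CCGGAA. Every match of GAGGAA or CCGGAA is also a match of GGAA. Neither window held CCGGAA. Such matches describe letters in these windows and are not binding sites. RefSeq windows were found for 7 of the 10 members. SPIC, at 0 in these libraries, also has a single start, with 1 match of GGAA. ETS2 has 2 annotated starts, ELF1 and ELF4 have 3 each and ERG has 4, between which gene-level TPM cannot distinguish. SPI1, ETS1 and FLI1 had no entry.

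On the log2(TPM + 1) scale, SPI1 (ENSG00000066336) showed the largest difference of the 16 ETS genes tested. It was listed at 31.28 and 35.93 TPM in differentiated libraries, against 2.92 and 1.51 TPM in undifferentiated libraries. Both differentiated libraries lay far above both undifferentiated ones, and the means of 33.6 ± 3.29 and 2.21 ± 0.997 TPM (SD, n = 2 each) stood in a ratio of 15.2. The log2 difference was 3.46 ± 0.39 (SE, limma adjusted p = 2.19e-05), higher than that of 97.8% of tested genes. Its first place among ETS genes depends on the pseudocount. With a pseudocount of 0.1 the change of ERG was larger, at -4.29 against 3.93 for SPI1. By mean level, SPI1 stood at the 98.3rd percentile of the 19817 protein-coding genes in differentiated cells and at the 69.1st in undifferentiated cells. SPI1 was thus already listed before differentiation, at a level nearly equal to that of SPIB in undifferentiated replicate 1 and below it in undifferentiated replicate 2. Its call held in each of the 13 other analyses run, with differences from 3.14 to 4.44 and adjusted p up to 0.0389.

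SPIB (ENSG00000269404) went the other way. It was listed at 0.21 and 0.10 TPM in differentiated libraries, against 2.98 and 2.99 TPM in undifferentiated libraries, a log2 difference of -1.79 ± 0.25 (SE, limma adjusted p = 0.000111). The groups did not overlap, and the mean in differentiated cells was 0.0519 times that in undifferentiated cells. The filter, which SPIB passed through the undifferentiated libraries alone, set its direction and separation. SPIB was the 1 tested member whose undifferentiated libraries agreed closely, at a ratio of replicate 1 to replicate 2 of 0.997, whereas this ratio ran from 1.75 for ERG to 2.67 for ETS2 among the other 8. Leaving out differentiated replicate 2 took the adjusted p of SPIB to 0.0627, where 12.5% of all genes were called. SPIC (ENSG00000166211), which mouse red pulp macrophages need for iron recycling, was listed at 0 throughout, and without depth no limit on its level can be set.

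Within a library the ratio of SPI1 to SPIB does not depend on how that library was scaled. It was 149 and 359 in differentiated libraries, against 0.980 and 0.505 in undifferentiated libraries. SPI1 was thus far more abundant than SPIB after differentiation, although the differentiated ratios rest on SPIB values of at most 0.21 TPM. In undifferentiated replicate 1 the 2 genes were nearly level (2.92 TPM for SPI1, 2.98 TPM for SPIB). Only in undifferentiated replicate 2 was SPI1 clearly lower (1.51 against 2.99 TPM). On the log2(TPM + 1) scale the ratio averaged 4.90 ± 0.23 in differentiated and -0.35 ± 0.46 in undifferentiated cells (SD, n = 2), a difference of 5.25. The log2 ratio of SPI1 to ETS1 averaged 2.87 ± 0.25 in differentiated and 0.48 ± 0.02 in undifferentiated cells, a difference of 2.39. For both ratios the stages did not overlap, and the exact two-sided permutation test gave p = 0.333, the smallest p that 2 against 2 libraries allow.

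ERG (ENSG00000157554), a factor of blood stem cells and endothelium, showed the largest fall. It was listed at 0.39 and 0.13 TPM in differentiated libraries, against 8.54 and 4.87 TPM in undifferentiated libraries. The groups were far apart, with a mean in differentiated cells 0.0388 times that in undifferentiated cells and a log2 difference of -2.58 ± 0.37 (SE, limma adjusted p = 0.000111). ERG passed the filter through the undifferentiated libraries alone, so its direction and separation were set by the filter. Its closest relative FLI1 (ENSG00000151702), which drives megakaryocyte genes, was listed at 8.61 and 7.59 TPM in differentiated libraries, against 11.82 and 6.04 TPM in undifferentiated libraries. The undifferentiated pair of FLI1 enclosed both differentiated values. Its difference was -0.06 with a 95% interval from -0.95 to 0.82 (limma adjusted p = 0.919), and it turned positive under median-of-ratios scaling, quantile normalization and protein-coding rescaling. The ratio of ERG to FLI1, chosen after the values were seen, was 0.0453 and 0.0171 in differentiated libraries and 0.723 and 0.806 in undifferentiated libraries. The adjusted p of ERG was 0.0693 and 0.0964 without differentiated replicate 1 or 2, with differences of -2.73 and -2.43.

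ETS1 and ETS2 are founding members whose activity is raised by MAP kinase phosphorylation. ETS1 (ENSG00000134954), best known from lymphocytes, was listed at 4 and 3.48 TPM in differentiated libraries, against 1.78 and 0.82 TPM in undifferentiated libraries. It was higher in differentiated cells, with non-overlapping libraries, a ratio of means of 2.88 and a log2 difference of 1.07 ± 0.37 (SE, limma adjusted p = 0.0328). Of the 6 calls this one had the highest adjusted p, and it was lost in several other analyses. The adjusted p was 0.294 and 0.257 without differentiated replicate 1 or 2, 0.0531 with the replicate number as a block and 0.152 without a filter on low values. ETS2 (ENSG00000157557), which mouse macrophages activate downstream of the M-CSF receptor, was listed at 2.03 and 3.06 TPM in differentiated libraries, against 5.82 and 2.18 TPM in undifferentiated libraries. These ranges overlapped, and the difference of -0.41 (95% interval from -1.35 to 0.54, limma adjusted p = 0.486) was 0.04 after protein-coding rescaling. In RefSeq, ERG and ETS2 are neighbours on chromosome 21 and ETS1 and FLI1 are neighbours on chromosome 11, with 0 protein-coding genes starting between the members of either pair. In each pair 1 gene was called and the other was not, and the difference within a pair was not tested.

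ELF1 (ENSG00000120690), an ETS factor found throughout blood lineages, was the most abundant member in undifferentiated cells. It was listed at 16.73 and 17.31 TPM in differentiated libraries, against 36.92 and 17.27 TPM in undifferentiated libraries. Undifferentiated replicate 2 lay between the differentiated values, so the stages were separated by undifferentiated replicate 1 alone. The difference was -0.55 (95% interval from -1.45 to 0.35, limma adjusted p = 0.318) and came to -0.01 after protein-coding rescaling. ELF4 (ENSG00000102034), a relative of ELF1 that acts in cytotoxic lymphocytes and in interferon induction, was listed at 3.90 and 5.31 TPM in differentiated libraries, against 0.97 and 0.49 TPM in undifferentiated libraries. Its libraries did not overlap, the ratio of means was 6.31 and the log2 difference was 1.70 ± 0.35 (SE, limma adjusted p = 0.00181). Because ELF4 passed the filter through the differentiated libraries alone, its direction and separation were set by the filter. Leaving out undifferentiated replicate 2, the lower library of that pair, gave adjusted p = 0.0135 for ELF1, with a difference of -1.07, and adjusted p = 0.0413 for ETS2, with a difference of -0.96.

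ETV6 (ENSG00000139083), a repressor needed by adult blood stem cells and often broken in childhood B cell leukaemia, was listed at 8.41 and 8.83 TPM in differentiated libraries, against 2.52 and 1.01 TPM in undifferentiated libraries. Both differentiated libraries lay above both undifferentiated ones, with a ratio of means of 4.88 and a log2 difference of 1.85 ± 0.41 (SE, limma adjusted p = 0.00271). With differentiated replicate 1 or 2 left out, the adjusted p was 0.171 and 0.186 for ETV6 and 0.0539 and 0.0649 for ELF4. In those fits the spread comes from the undifferentiated pair alone. Within libraries, ETV6 stood at 0.503 and 0.510 times the level of ELF1 in differentiated cells and at 0.0683 and 0.0585 times in undifferentiated cells, a ratio chosen after the values were seen.

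**Figure D2:**
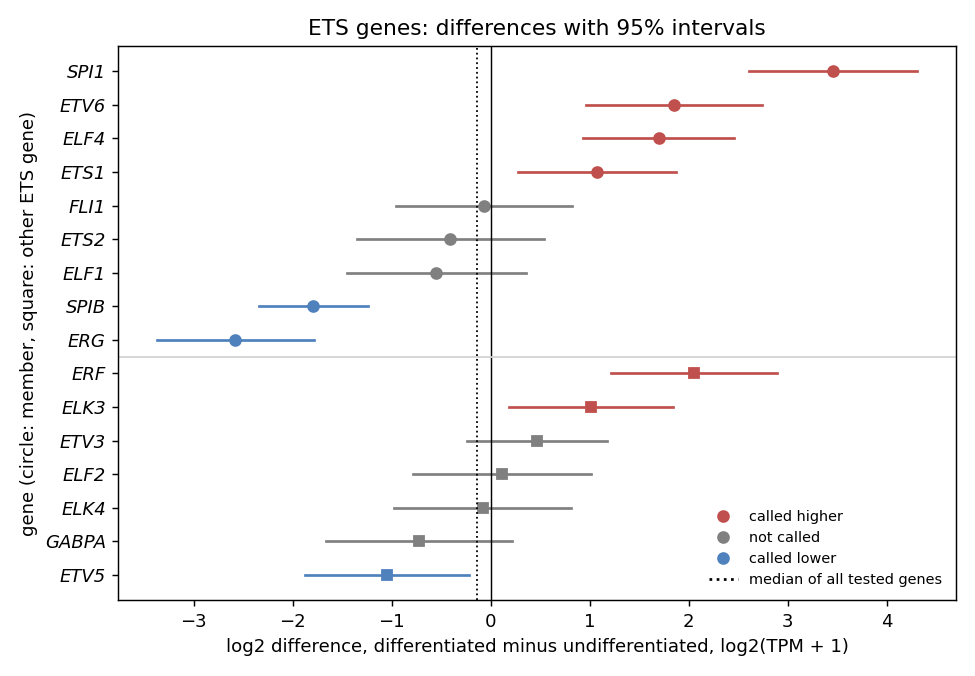
Difference between stages for the 9 tested members (circles, above the line) and the 7 other tested ETS genes (squares, below it), on the log2(TPM + 1) scale with 95% intervals from limma. The largest rise is that of SPI1 at 3.46 and the largest fall that of ERG at -2.58, beside a median of -0.14 over all tested genes (dotted).

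Among the 18 other ETS genes, 7 passed the filter, and 2 of these were called higher, 1 lower and 4 were not called, with a median difference of 0.12. These 3 calls among 7 genes are close to the 41.4% called over all tested genes. ERF, a repressor that MAP kinase phosphorylation sends out of the nucleus, was listed at 7.09 and 8.64 TPM in differentiated libraries, against 1.48 and 0.83 TPM in undifferentiated libraries (log2 difference 2.05, limma adjusted p = 0.000891). ELK3, a partner of serum response factor, was listed at 4.88 and 6.38 TPM in differentiated libraries, against 2.44 and 2.11 TPM in undifferentiated libraries (limma adjusted p = 0.0498). ETV5, of the PEA3 subfamily, went down, at 5.52 and 6.42 TPM in differentiated against 15.88 and 11.23 TPM in undifferentiated libraries (log2 difference -1.05, limma adjusted p = 0.0435). The calls of ELK3 and ETV5 lay just inside the threshold and were lost with a pseudocount of 0.1 (adjusted p = 0.0583 and 0.051) or with the replicate number as a block (0.112 and 0.107). Without differentiated replicate 1 or 2, where 12.7% and 12.5% of all genes were called, none of the 3 was called, with adjusted p of 0.09 and 0.108 for ERF, 0.336 and 0.49 for ELK3 and 0.414 and 0.337 for ETV5. GABPA, which controls housekeeping and mitochondrial genes, had a difference of -0.72 (adjusted p = 0.204) and the repressor ETV3 one of 0.47 (adjusted p = 0.274). ELF2 and ELK4 differed by 0.12 and -0.08. The other 11 genes stayed below the filter, and the epithelial factors among them, ELF3, ELF5, EHF and SPDEF, reached at most 0.39 TPM.

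Shares within the family do not depend on the scaling of whole libraries. The summed TPM of the 10 members was 75.56 and 81.74 in differentiated and 74.27 and 37.18 in undifferentiated libraries. The sum therefore differed little between the differentiated pair and undifferentiated replicate 1. On the protein-coding scale the sums were 620 and 606 in differentiated and 323 and 238 in undifferentiated libraries, so the size of the pool depends on the scale used. SPI1 took 41.4% and 44.0% of the pool in differentiated libraries, against 3.93% and 4.06% in undifferentiated libraries. ELF1 took 22.1% and 21.2% in differentiated libraries, against 49.7% and 46.4% in undifferentiated libraries. ERG took 0.516% and 0.159% in differentiated and 11.5% and 13.1% in undifferentiated libraries. FLI1 took 11.4% and 9.29% in differentiated libraries, against 15.9% and 16.2% in undifferentiated libraries, where its TPM differed by a ratio of 1.96. SPIB went the other way there, with nearly equal TPM but shares of 4.01% and 8.04%. ETV6 took 11.1% and 10.8% in differentiated and 3.39% and 2.72% in undifferentiated libraries. Shares sum to the same total, so the share of a gene can fall because another gene rose, and no test was made of them.

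**Figure D3:**
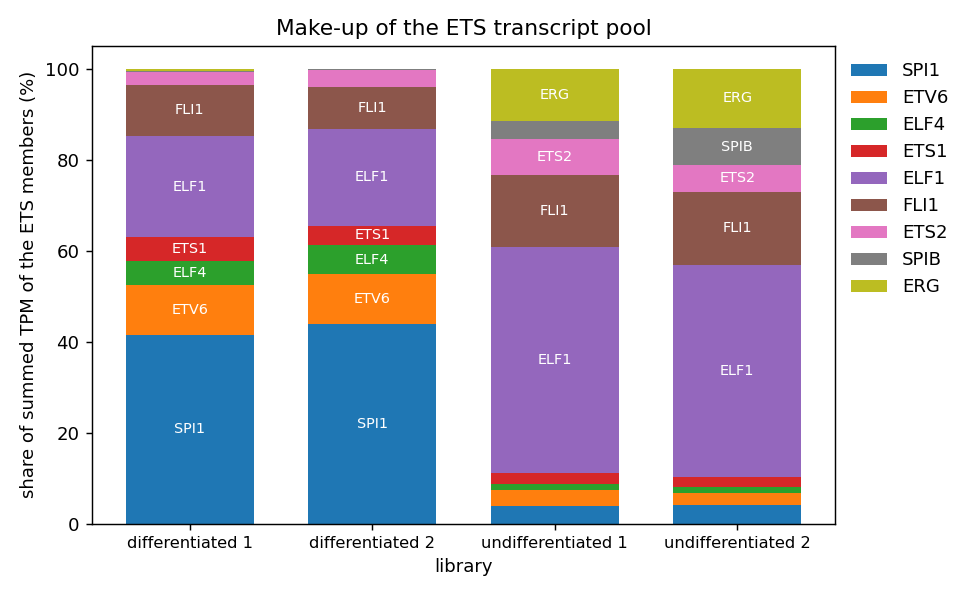
Share of each member in the summed TPM of the 10 ETS members, in percent, with 1 stacked bar per library, differentiated left of undifferentiated. SPI1 fills 41.4% and 44.0% of the differentiated bars, and ELF1 fills 49.7% and 46.4% of the undifferentiated bars; SPIC, at 0, is not drawn.

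By level per length, the order in differentiated cells was SPI1, ELF1, ETV6, FLI1, ELF4, ETS1, ETS2, ERG and SPIB. Neighbours in this order overlapped for ETV6 and FLI1, for ELF4 and ETS1, and for ERG and SPIB, and the other neighbours did not. In undifferentiated cells the order was ELF1, FLI1, ERG, ETS2, SPIB, SPI1, ETV6, ETS1 and ELF4. There the ranges of neighbours overlapped except between ELF1 and FLI1 and, narrowly, between SPIB and SPI1. Within each undifferentiated library the ranks were nonetheless the same except that ETS2 and SPIB changed places. Among all 28 ETS genes SPI1 ranked 1 in both differentiated libraries and 10 and 11 in undifferentiated libraries, where ELF1 ranked 1, ETV5 2 and ELF2 4, ahead of ERG at 5.

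The genes whose 4 values lay closest to those of SPI1, by Euclidean distance over log2(TPM + 1) among the other 10179 tested genes, were MILR1, CTSZ and LIPA. MILR1, a mast cell immunoglobulin-like receptor, was at a distance of 0.22, with 26.90 and 36.63 TPM in differentiated and 2.85 and 1.42 TPM in undifferentiated libraries. CTSZ, a lysosomal protease, was at 0.27, and LIPA, the lysosomal acid lipase, was at 0.34. Over 4 libraries in 2 stages, this likeness measures little beyond a similar level at each stage.

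**Figure D4:**
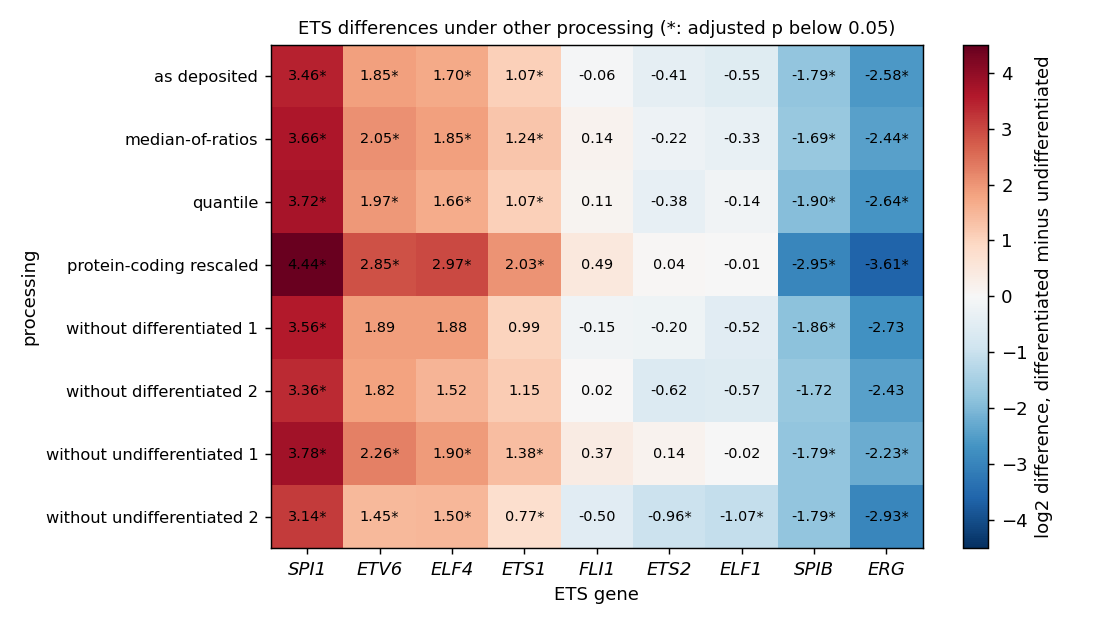
Log2 difference of each tested member (columns) as deposited, under 3 other scalings and with each library left out (rows), differentiated minus undifferentiated; an asterisk marks an adjusted p below 0.05. SPI1 is called in every row shown, whereas the calls of ETV6, ELF4, ETS1 and ERG are lost in both rows that leave out a differentiated library.

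Factors that bind DNA together with ETS proteins changed in both directions. Of 15 tested partners out of 17, 7 were called higher and 5 lower, with a median of 0.10, beside 18.6% higher and 22.8% lower over all tested genes. Of the 15, 2 (CEBPB and TAL1) passed the filter through the differentiated libraries alone and 2 (IRF4 and PAX5) through the undifferentiated libraries alone. These had to differ in that direction. IRF8, which binds composite sites with PU.1 in macrophages and B cells, was listed at 20.80 and 23.19 TPM in differentiated libraries, against 2.42 and 1.08 TPM in undifferentiated libraries (log2 difference 3.11, limma adjusted p = 5.38e-05). IRF4, its relative that binds with PU.1 or Spi-B in B cells, was listed at 0.53 and 0.39 TPM in differentiated libraries, against 9.04 and 4.92 TPM in undifferentiated libraries (log2 difference -2.40, limma adjusted p = 0.000254). SPI1 and IRF8 were thus both called higher, and SPIB and IRF4 both lower. SPIB and IRF4 passed the filter through the undifferentiated libraries alone, so their direction was set by the filter. CEBPB, a C/EBP factor of macrophages, was listed at 8.69 and 10.65 TPM in differentiated libraries, against 0.28 and 0.17 TPM in undifferentiated libraries. LMO2, an adaptor of stem cell complexes with ERG and FLI1, was higher at 11.52 and 11.98 TPM in differentiated against 1.47 and 1.02 TPM in undifferentiated libraries. Without differentiated replicate 1 or 2 the calls of IRF8 (adjusted p = 0.0523 and 0.059), IRF4 (0.0968 and 0.111) and LMO2 (0.0711 and 0.0746) were lost, and that of CEBPB was not. The list then held 2 higher and 1 lower calls, beside 12.7% and 12.5% of all genes called.

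The 5 partners called lower were MYB, PAX5, IRF4, GABPB1 and RUNX1, of which the last 2 were named after their values were seen. PAX5, which recruits ETS1 to the CD79A promoter, was listed at 0.59 and 0.58 TPM in differentiated libraries, against 13.31 and 7.68 TPM in undifferentiated libraries (log2 difference -2.81, limma adjusted p = 0.000106). MYB, a factor of immature blood cells, had a mean of 2.60 ± 0.233 TPM in differentiated cells, against 83.9 ± 39.0 TPM in undifferentiated ones (SD, n = 2 each). GABPB1, the subunit through which GABPA activates transcription, was listed at 3.73 and 5.04 TPM in differentiated libraries, against 19.02 and 13.12 TPM in undifferentiated libraries (log2 difference -1.65, limma adjusted p = 0.00423). RUNX1, a partner of ETS1 and ERG and a regulator of SPI1, was lower, at 14.45 and 14.62 TPM in differentiated against 40.26 and 24.37 TPM in undifferentiated libraries (limma adjusted p = 0.0426). With differentiated replicate 1 or 2 left out, p rose to 0.0698 and 0.0694 for PAX5, 0.217 and 0.143 for GABPB1 and 0.354 and 0.348 for RUNX1 (adjusted), and RUNX1 was also not called without undifferentiated replicate 1 (0.0522) or after protein-coding rescaling (0.0635). CEBPA was among those called higher, but gene-level values cannot separate its own transcript from the introduced fusion.

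Most tested genes of a list of known PU.1 targets in myeloid cells were called higher in differentiated cells, but most of these could pass the filter only through those cells. Of 22 listed, 18 were tested, and 17 were called higher, 0 lower and 1 (NCF4) was not called, with a median of 4.12, beside 18.6% of all tested genes called higher and a median of -0.14. Of the 18, 13 passed through the differentiated libraries alone and so had to differ, so that neither the count nor the median speaks for the list. CSF1R, ITGAM, FCGR1A, MSR1, MRC1, CD14 and CD68 were also among the macrophage markers above, so the list is not separate from them. Among the 18, 3 were listed at 0 in both undifferentiated libraries. The largest differences were those of CD68, at 196.74 and 217.12 TPM in differentiated against 0.60 and 0.27 TPM in undifferentiated libraries, and of CD14, the lipopolysaccharide co-receptor. The scavenger receptor gene MSR1 was listed at 85.27 and 92.26 TPM in differentiated libraries and at 0 in both undifferentiated ones. The 4 below the filter were CSF3R and the granule protease and peroxidase genes ELANE, PRTN3 and MPO, all genes of the granulocyte lineage. Without differentiated replicate 1 or 2, 15 of the list were called higher, and 12.7% and 12.5% of all genes were called in either direction. NCF4, an oxidase subunit, was already at 7.35 and 5.2 TPM in undifferentiated libraries, with 9.26 and 9.78 TPM in differentiated ones, and was called higher under median-of-ratios scaling (adjusted p = 0.0228), quantile normalization (0.0283), protein-coding rescaling (0.00514) or without undifferentiated replicate 1 (0.0466).

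Targets through which PU.1 and Spi-B act in B cells mostly went the opposite way. Of 10 tested out of 12, 7 were called lower, 1 higher and 2 (BTK and BCL6) were not called, with a median of -2.40, beside 22.8% lower and 18.6% higher over all tested genes. CD79A, CD79B and EBF1 of this list were also among the B lineage markers above. IL7R, the interleukin-7 receptor, was listed at 8.15 and 6.83 TPM in differentiated libraries, against 244.16 and 113.91 TPM in undifferentiated libraries. EBF1, a B lineage factor whose gene PU.1 and ETS1 help to activate, was lower by -3.58 on the log2 scale (limma adjusted p = 2.81e-05). JCHAIN, the joining chain of secreted immunoglobulin, was listed at 0 in both differentiated libraries and at 9.58 and 3.56 TPM in undifferentiated ones. It passed the filter through the undifferentiated libraries alone. SYK, a kinase used by antigen and Fc receptors alike, was the 1 member called higher, at 17.57 and 24.14 TPM in differentiated against 3.17 and 1.55 TPM in undifferentiated libraries (limma adjusted p = 0.000158). Without differentiated replicate 1 or 2 the counts of lower calls were 2 and 3, with 12.7% and 12.5% of all genes called, and the adjusted p was 0.0604 and 0.0909 for SYK and 0.082 and 0.0807 for JCHAIN.

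Of 4 listed genes tied to SPIC in mouse iron-handling macrophages, all 3 tested were called higher, beside 18.6% of all tested genes. SPIC itself was listed at 0. Of the 3, 2 (HMOX1 and SLC40A1) passed the filter through the differentiated libraries alone and so had to differ. The count therefore does not speak for the list. Haem oxygenase 1 (HMOX1) was listed at 94.49 and 107.22 TPM in differentiated libraries and at 0.08 and 0 TPM in undifferentiated ones. The iron exporter SLC40A1 was at 7.15 and 8.41 TPM in differentiated libraries and at 0 in both undifferentiated ones. BACH1, a repressor of HMOX1 and of mouse Spic, was also higher, at 15 and 16.32 TPM in differentiated against 8.34 and 5.74 TPM in undifferentiated libraries (limma adjusted p = 0.0389, but 0.343 and 0.403 without differentiated replicate 1 or 2 and 0.0995 with the replicate number as a block). VCAM1 stayed below the filter.

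Among the tested co-repressors through which ETV6 acts, NCOR1 was listed at 4.13 and 3.89 TPM in differentiated libraries, against 7.39 and 2.99 TPM in undifferentiated libraries (limma adjusted p = 0.737). The undifferentiated pair enclosed both differentiated values. SIN3A, a scaffold of histone deacetylase complexes, was called lower under median-of-ratios scaling (adjusted p = 0.0243), quantile normalization (0.0221) or without undifferentiated replicate 2 (0.0103), where NCOR1 was also called lower (0.0469). Among regulators of ETS proteins, the kinase gene MAPK3 and the ubiquitin ligase genes COP1 and DET1 were not called by limma as deposited, with adjusted p = 0.192 for COP1 and 0.929 for DET1. COP1 was called higher under each of the other 3 scalings (adjusted p from 0.00325 to 0.0139) and without undifferentiated replicate 1 (0.0246), and MAPK3 after protein-coding rescaling (0.0212).

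**Figure D5:**
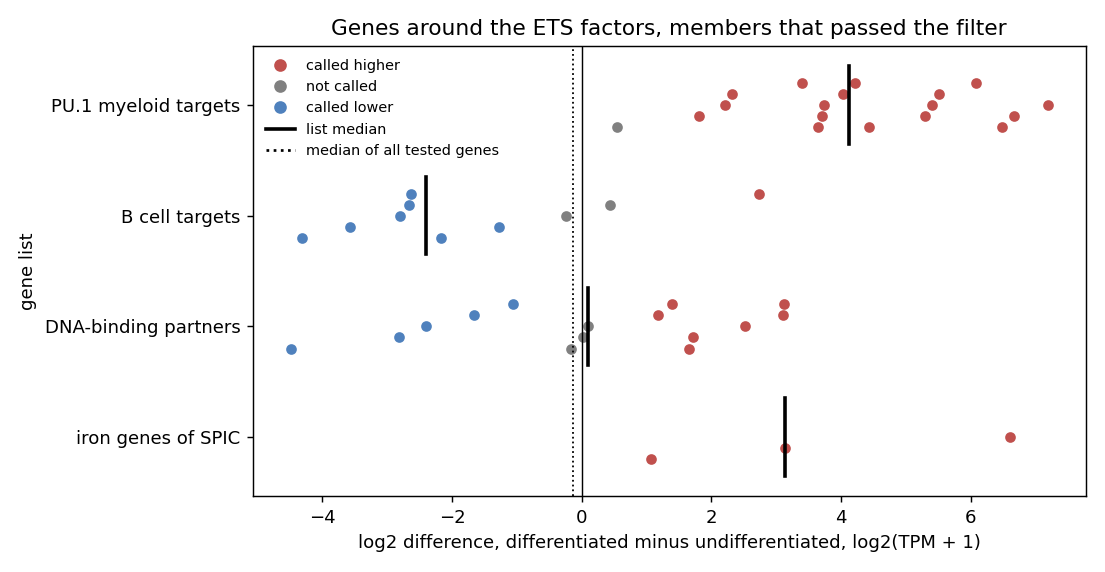
Log2 difference of every tested gene in 4 lists of ETS partners and target genes, with 1 point per gene, the list median as a bar and the median of all tested genes as a dotted line. The PU.1 myeloid targets lie at a median of 4.12 and the B cell targets at -2.40. Of the 18 tested PU.1 targets, 13 passed the filter through the differentiated libraries alone, so their median does not speak for the list. Vertical spread within a list only separates points.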

How the data were processed

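Total RNA of BLaER1 cells was sequenced, with 2 libraries from differentiated and 2 from undifferentiated cells. Per the labels' protocols, the stranded libraries were made with a NuGEN Encore Complete kit after Trizol and column purification. The authors deposited TPM, 1 column per library over 58302 genes. Per the submitters' processing notes they used Trimmomatic, STAR and RSEM. Their versions, and the build and annotation used, are not given in these sources. The estimated reads behind TPM are not recorded, so depth and counting error are unknown.

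Columns were assigned by sample titles. Genes reaching 1 TPM in 2 or more libraries (10180) were tested on log2(TPM + 1) with limma 3.58.1 in R 4.3.3, with a mean-variance trend, two-sided, 2 residual and 10.92 prior degrees of freedom, and Benjamini-Hochberg adjustment over all tested genes. The procedure was tested on simulated data drawn without a shift between libraries of a stage. That test does not cover a shift like the one between the undifferentiated libraries. Gene types came from GENCODE release 29, in which 58039 IDs were found, and promoters and gene order from RefSeq (GRCh38.p14). COP1 was matched by its gene ID, since the table uses an older symbol.

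The members and lists were chosen with earlier results of these data known. The genes named are all members, every other tested ETS gene, up to 3 called genes of each list with the largest change in each direction, and the 3 genes nearest to SPI1. Any other gene was named after its values were seen. A few of the genes selected in this way are left unreported. Alternatives were 3 other scalings, a pseudocount of 0.1, no filter, a filter at 5 TPM, no trend, a test against a log2 difference of 1, a replicate block and each library left out.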

Additional observations from a re-analysis of the deposited data

How the results depend on the processing

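SPI1 kept its direction and its call in all 13 alternatives, and the 6 called members kept their direction in every alternative in which they were tested. Among the members, 16 calls were lost under the alternatives, 2 were gained and 7 directions reversed. Members that a stricter filter left untested are not in these numbers. Over members, list counts, ratios and shares, 296 values were classed as the same, a class that lets counts shift moderately. A further 63 counts, ratios or shares moved. Lost calls of single genes in the lists were not tallied in these numbers.

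Of the 3 members not called, FLI1 turned positive under all 3 other scalings, ETS2 after protein-coding rescaling, and ELF1 stayed negative under all 3. FLI1 was -0.06 as deposited, 0.49 after protein-coding rescaling, 0.11 under quantile normalization and 0.14 under median-of-ratios scaling. ETS2 was -0.41 as deposited and 0.0437 after protein-coding rescaling. Without a filter, where 4.32% of all genes were called, the calls of ETS1 (1.07, adjusted p = 0.152), ELF4 (1.70, adjusted p = 0.0687) and ETV6 (1.85, adjusted p = 0.0788) were lost, and 1 member was called higher. A test against a log2 difference of 1 lost the same 3 (adjusted p = 1, 0.193 and 0.164), leaving 1 higher. With a filter at 5 TPM, 2 members were called higher and 0 lower, because fewer were tested. For the other lost calls the cause was not tested.

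With each library left out in turn, the differences ranged from 3.14 to 3.78 for SPI1, from -1.86 to -1.72 for SPIB, from 0.77 to 1.38 for ETS1, from -0.96 to 0.14 for ETS2, from -2.93 to -2.23 for ERG, from -0.50 to 0.37 for FLI1, from -1.07 to -0.0201 for ELF1, from 1.5 to 1.9 for ELF4 and from 1.45 to 2.26 for ETV6. Members called higher ranged from 1 to 4 and lower from 0 to 4, with 1 higher without either differentiated library and 4 lower without undifferentiated replicate 2. Other ETS genes called ranged from 0 to 2 in each direction, partners from 2 to 7 higher and 1 to 5 lower, B cell targets from 0 to 2 higher and 2 to 7 lower, regulators from 0 to 1 higher and co-repressors from 0 to 2 lower. The SPI1 to SPIB log2 ratio differed by 4.93 to 5.57, and by 7.56 with a pseudocount of 0.1, and the SPI1 to ETS1 ratio by 2.21 to 2.56.

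The replicate numbers are shared by the stages, but libraries of the same number did not deviate together (correlation across genes -0.02). With only 1 replicate difference per stage, this value cannot tell whether libraries of the same number were paired. With the replicate block, 3766 genes were called in place of 4216, ETS1 (1.07, adjusted p = 0.0531) lost its call, and 1 other ETS gene was higher and 0 were lower.

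Other ETS genes called higher numbered 4 after protein-coding rescaling, 1 with a pseudocount of 0.1, without a filter or with a filter at 5 TPM, and 0 against a log2 difference of 1. Those called lower numbered 2 after quantile normalization and 0 after protein-coding rescaling, with a pseudocount of 0.1, without a filter and against a log2 difference of 1. Partners numbered 4 higher and 3 lower without a filter and 3 higher and 3 lower against a log2 difference of 1. B cell targets called higher numbered 3 after protein-coding rescaling. Regulators called higher numbered 1 after median-of-ratios scaling and quantile normalization and 3 after protein-coding rescaling, and co-repressors called lower numbered 1 under the first 2 of these.

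Taken of all 28 ETS genes in place of the 10 members, mean shares in differentiated and in undifferentiated cells were 28.4% and 2.33% for SPI1, 3.18% and 1.35% for ETS1, 2.15% and 4.02% for ETS2, 6.88% and 9.39% for FLI1, 14.4% and 28.1% for ELF1, 3.89% and 0.766% for ELF4 and 7.30% and 1.79% for ETV6, and 7.17% for ERG in undifferentiated cells. Over all genes, 44.8% of calls were higher as deposited, 52.4% after median-of-ratios scaling, 65.6% after protein-coding rescaling, 54.5% without a filter, 56.4% without undifferentiated replicate 1 and 32.4% without undifferentiated replicate 2, and 73.4% and 73.5% without differentiated replicate 1 or 2. With 2 libraries a stage and no depth, differences near those between the undifferentiated libraries cannot be resolved.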
